A study of Rattus norvegicus with 6 samples.

Results

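Chemokines and chemokine receptors were followed in primary hippocampal neurons of the rat in which the cyclin CCNY was overexpressed or knocked down. The 7 genes were taken by symbol from the 17066 genes of the table: the ligands Ccl2, Ccl7, Cxcl1, Cxcl10, Cxcl12 and Cx3cl1 and the receptor Cxcr4. Ccl2 and Ccl7 were selected on their measured FPKM, which moved in opposite directions on overexpression and on knockdown, so their changes are given as a description without a test. All 7 genes were listed in the table, and 6 of them reached an FPKM of 1 in at least 2 libraries and were fitted; Cxcl10 did not. Cxcl1 reached that level only in CCNY-WT, so no test is read for it either.

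The neurons came from Sprague-Dawley embryos at embryonic day 18 and received lentivirus on day 5 or 6 in culture. Control cultures received EGFP alone, overexpressing cultures CCNY-WT-EGFP and knockdown cultures CCNY-shRNA-EGFP, all from the vector FUGW. RNA was taken on day 14, and 2 libraries were sequenced for each of the 3 conditions. The EGFP vector was named as the control, and a control shRNA of unrelated sequence is not named in the sources used here, so the knockdown of CCNY and the expression of a short hairpin cannot be told apart here. Nothing in the labels says that the 2 libraries of a condition came from separate cultures, so the errors and p-values describe the spread between these libraries, which may be technical. The targeted gene Ccny had FPKM values of 43.1 and 42.3 (EGFP), 108 and 109 (CCNY-WT) and 5.98 and 6.19 (CCNY-shRNA).

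Chemokines are small secreted proteins that guide cells along a gradient by binding receptors coupled to G proteins. Inflammatory chemokines such as Ccl2, Ccl7, Cxcl1 and Cxcl10 are kept low and are transcribed on signals such as tumour necrosis factor, interleukin 1 or interferon, through factors that include NF-kappa-B, AP-1 and interferon regulatory factors. Cxcl12, its receptor Cxcr4 and the membrane-bound neuronal ligand Cx3cl1, also called fractalkine, are in contrast expressed in the healthy brain, where Cxcl12 guides migrating neurons and Cx3cl1 signals to microglia through Cx3cr1.

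Promoter sequences are shown because the inflammatory and the homeostatic genes are known to be switched on through different upstream elements. RefSeq sequences were matched by symbol for 6 of the 7 genes, all but Ccl2, in the rat build GRCr8, and the 250 bases before the transcription start are given 5′ to 3′ on the strand of the gene for 3 of them. They are Ccl7, the inflammatory gene with the lowest ratio to EGFP on knockdown, Cxcl1, whose conditions fell in the same order, and Cx3cl1, the most abundant gene of the group. Capitals mark the matches to any of 5 motifs, searched on both strands: the kappa-B motif, AP-1 (TGANTCA), the interferon-stimulated response element (GAAANNGAAA), the GC box (GGGCGG) and the TATA box, whose letters were TATAAA.
Ccl7, chr10:67513845-67514094, plus strand: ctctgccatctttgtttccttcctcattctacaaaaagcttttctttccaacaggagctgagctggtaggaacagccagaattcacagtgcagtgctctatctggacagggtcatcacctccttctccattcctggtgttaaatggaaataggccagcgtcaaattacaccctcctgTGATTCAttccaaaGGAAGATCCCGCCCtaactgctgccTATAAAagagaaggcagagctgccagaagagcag
Cxcl1, chr14:17479322-17479571, minus strand: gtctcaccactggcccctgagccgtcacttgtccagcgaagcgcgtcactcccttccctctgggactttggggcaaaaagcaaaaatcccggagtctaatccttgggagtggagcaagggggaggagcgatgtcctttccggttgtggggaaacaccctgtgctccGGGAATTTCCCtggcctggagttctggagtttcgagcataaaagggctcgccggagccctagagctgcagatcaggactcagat
Cx3cl1, chr19:10242821-10243070, minus strand: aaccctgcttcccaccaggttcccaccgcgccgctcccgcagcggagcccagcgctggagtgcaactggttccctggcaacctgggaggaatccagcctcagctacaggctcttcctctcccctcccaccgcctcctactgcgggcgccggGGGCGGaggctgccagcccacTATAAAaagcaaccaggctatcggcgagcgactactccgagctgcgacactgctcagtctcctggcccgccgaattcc
Ccl7 held 1 kappa-B match, which overlapped a GC box, together with 1 AP-1 and 1 TATA match. In Cxcl1 the capitals are 2 overlapping kappa-B matches, and in Cx3cl1 a GC box and a TATA match. Cxcl10, not printed, held 3 kappa-B matches, of which 2 overlap, 1 AP-1 match, 1 interferon-stimulated response element and 1 TATA match. Cxcl12 held 3 GC boxes alone, and Cxcr4 held 3 GC boxes and 2 overlapping TATA matches. Kappa-B letters were thus found in the windows of Ccl7, Cxcl1 and Cxcl10 and not in those of Cxcl12, Cx3cl1 and Cxcr4. Among 33469 RefSeq promoters of the same length, 6.33% held a kappa-B match, 6.34% AP-1, 3.41% the interferon-stimulated response element, 30.5% a GC box and 12.9% TATA. A match describes letters in the window and not a bound site.

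The inflammatory ligands were low in all cultures, and Ccl7 and Cxcl1 were highest in the CCNY-WT libraries and lowest in the CCNY-shRNA libraries. Ccl2, which attracts monocytes through Ccr2, had an FPKM of 7.71 and 5.48 (EGFP), 6.50 and 12.3 (CCNY-WT) and 3.14 and 5.93 (CCNY-shRNA). The group means were 6.60 ± 1.58, 9.38 ± 4.08 and 4.54 ± 1.97 (SD, n = 2), which is 1.42 times the EGFP mean in CCNY-WT and 0.687 times in CCNY-shRNA. Both groups overlapped with EGFP: CCNY-WT replicate 1 lay below EGFP replicate 1, and CCNY-shRNA replicate 2 lay above EGFP replicate 2. The 2 libraries of CCNY-WT differed by 1.89 times and those of CCNY-shRNA also by 1.89 times, more than CCNY-WT differed from EGFP. On the log2 scale of FPKM floored to 1, the difference from EGFP was −0.59 on knockdown and 0.46 on overexpression. The rise rested on 1 library, since without CCNY-WT replicate 2 the difference was −0.001. Without CCNY-shRNA replicate 1 the fall was −0.13 rather than −0.59. Without EGFP replicate 1 or 2, the CCNY-WT difference was 0.70 or 0.21.

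Ccl7, a relative of Ccl2 that binds several CC receptors, separated the 3 conditions in every library, the pattern it was chosen for. Its FPKM was 1.37 and 1.75 (EGFP), 2.48 and 2.93 (CCNY-WT) and 0.668 and 0.472 (CCNY-shRNA). Every CCNY-WT library lay above, and every CCNY-shRNA library below, both EGFP libraries. The means were 1.56 ± 0.270, 2.71 ± 0.316 and 0.570 ± 0.138 (SD, n = 2), 1.74 times the EGFP mean on overexpression and 0.366 times on knockdown. Because both CCNY-shRNA values lay under the floor of 1, the floored log2 difference of −0.63 understates the fall, and adding 0.1 in place of the floor gave −1.31. In CCNY-WT the floored difference was 0.80, and adding 1 in place of the floor gave 0.54.

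Cxcl1, which attracts neutrophils through Cxcr2, was ordered in the same way at a still lower level. Its FPKM was 0.679 and 0.621 (EGFP), 1.2 and 1.46 (CCNY-WT) and 0.277 and 0.392 (CCNY-shRNA), again without overlap between any of the groups. The means were 0.65 ± 0.0409, 1.33 ± 0.182 and 0.334 ± 0.0814 (SD, n = 2), 2.04 times the EGFP mean in CCNY-WT and 0.514 times in CCNY-shRNA. Cxcl1 was fitted only because both CCNY-WT libraries exceeded an FPKM of 1, and its other 4 libraries were all set to the floor, so its fitted difference is 0.000 in CCNY-shRNA. With 0.1 added in place of the floor, the CCNY-shRNA difference was −0.80. The study also measured Cxcl1 by qRT-PCR, found no significant difference between its samples and kept the gene as a control. It presented Ccl2 and Ccl7 as changed by qRT-PCR.

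Cxcl10, an interferon-induced ligand of Cxcr3, was listed at 0 in both EGFP libraries. The CCNY-WT libraries read 0.538 and 0, and the CCNY-shRNA libraries 0.435 and 0.154. The 2 CCNY-WT values lay on either side of both CCNY-shRNA values, and no fold was formed.

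**Figure D1:**
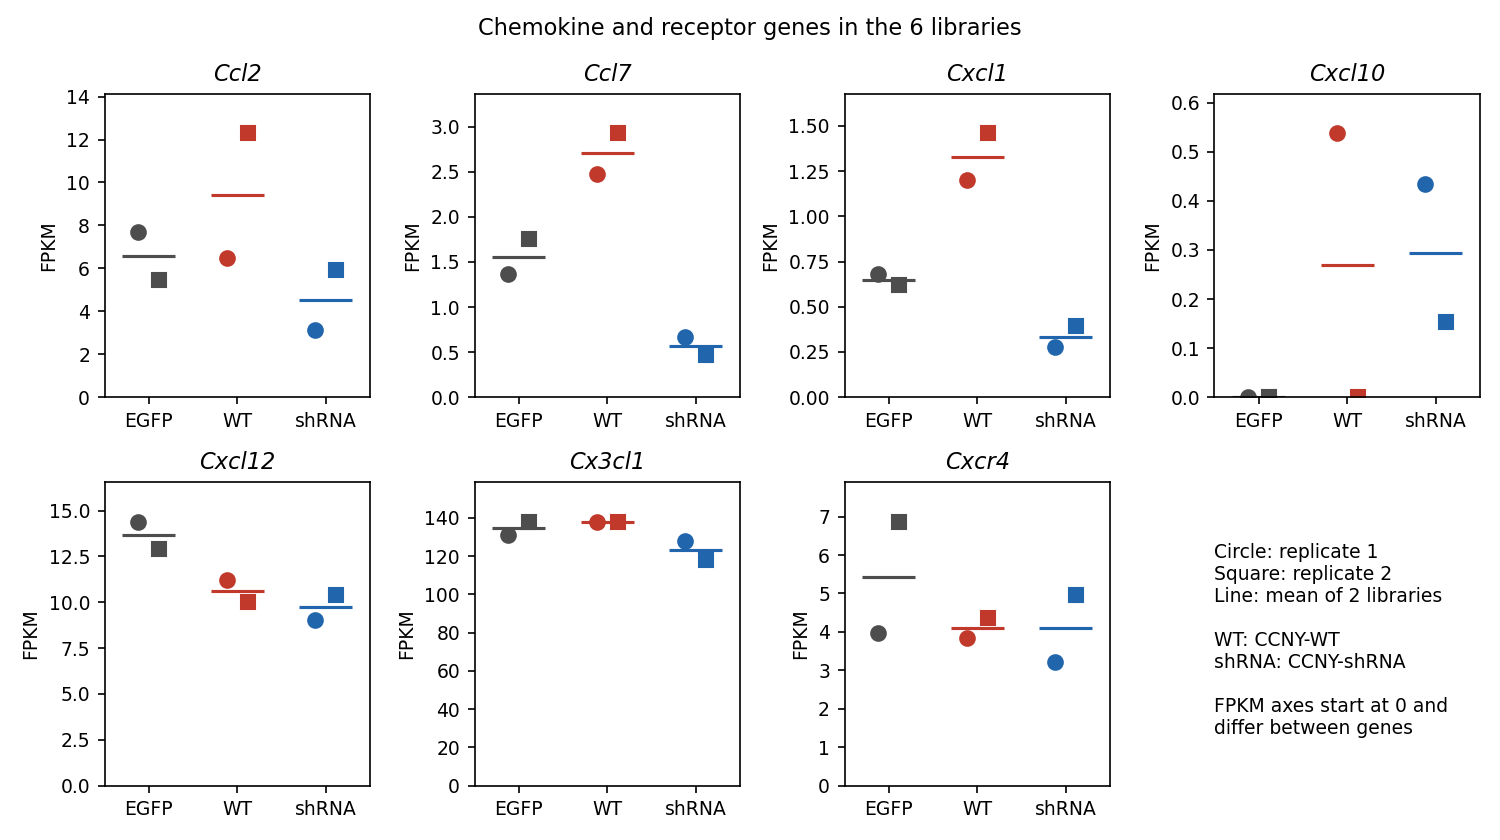
FPKM (linear axes from 0) of the 7 chemokine and receptor genes in the 6 libraries, with a circle for replicate 1, a square for replicate 2 and a line for the mean of each condition. Ccl7 and Cxcl1 run from CCNY-shRNA through EGFP to CCNY-WT without overlap, Ccl2 overlaps with EGFP in both conditions, and Cxcl12 lies lower than EGFP in both.

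These levels rest on few sequenced fragments. The FPKM of low genes rises in steps, from which the smallest whole number of fragments that fits the 6 libraries can be read; the true number could be a multiple of it. For Ccl7 these numbers were 5 and 7 (EGFP), 12 and 10 (CCNY-WT) and 2 and 2 (CCNY-shRNA). The sums of 12, 22 and 4 have exact 95% Poisson intervals from 6.20 to 21.0, from 13.8 to 33.3 and from 1.09 to 10.2, which cover counting error only. Cxcl1 was counted at 3 and 3, 7 and 6, and 1 and 2 fragments in the same order. Per unit of depth, its sum in CCNY-WT was 2.0 times that in EGFP (exact 95% interval 0.71 to 6.42) and in CCNY-shRNA 0.531 times (0.0859 to 2.49). Both intervals of Cxcl1 cover counting error only, hold for these smallest numbers and include a ratio of 1. No test is read from them, since Cxcl1 passed the filter only through CCNY-WT. Ccl2 had larger numbers, 27 and 21 (EGFP), 30 and 40 (CCNY-WT) and 9 and 24 (CCNY-shRNA), which fitted whole numbers only within a tolerance of 0.12. Cxcl10 rested on 4 fragments of CCNY-WT replicate 1, 2 of CCNY-shRNA replicate 1 and 1 of CCNY-shRNA replicate 2. Its 0 in both EGFP libraries has an upper 95% limit of 3.69 fragments, so a difference from the other conditions was not detectable at this depth.

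**Figure D2:**
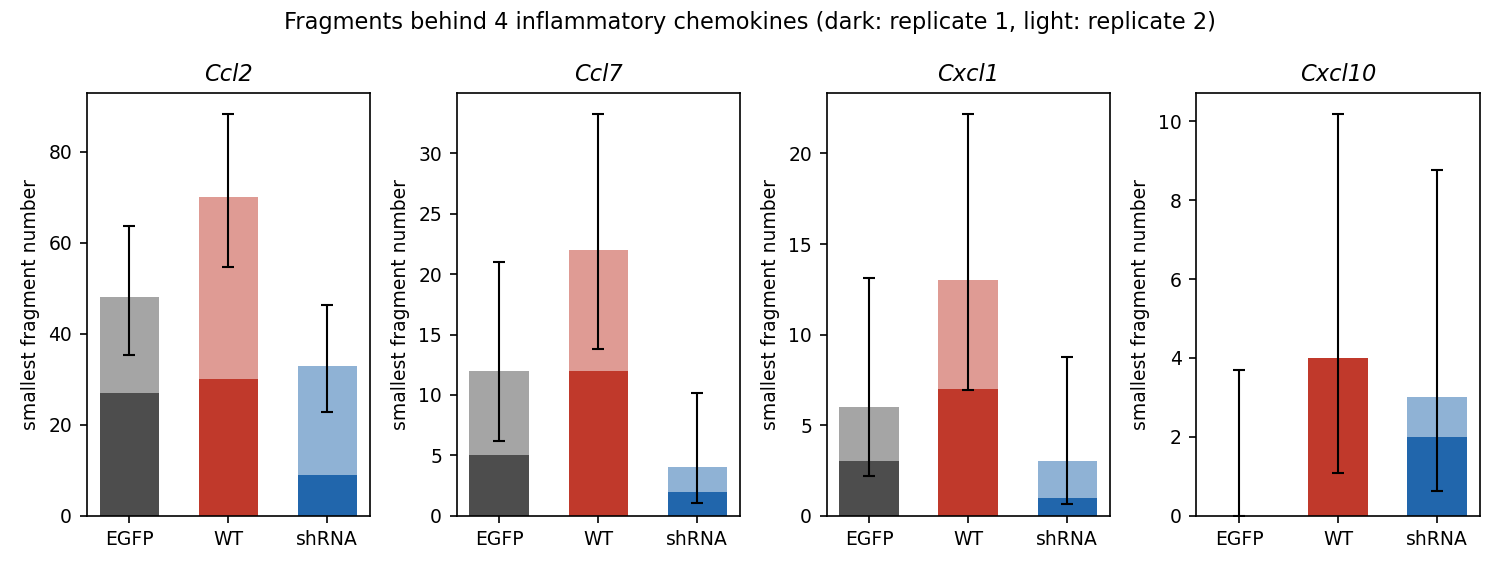
Smallest whole numbers of fragments that fit the FPKM of 4 inflammatory chemokines, summed over the 2 libraries of each condition (dark for replicate 1, light for replicate 2), with exact 95% Poisson intervals of the sums. The intervals of CCNY-WT and EGFP overlap for Ccl2, Ccl7 and Cxcl1, and only Ccl2 exceeds 22 fragments in any condition. The intervals of CCNY-WT and CCNY-shRNA overlap for Cxcl1 and do not for Ccl2 and Ccl7. Ccl2 and Ccl7 were chosen for these opposite changes, so nothing is read from the lack of overlap. The intervals cover counting error only, and the sums are not scaled to depth.

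Of the other 3 genes, which serve homeostatic roles, none passed limma's threshold in any comparison. Cxcl12 had an FPKM of 14.4 and 12.9 (EGFP), 11.2 and 10 (CCNY-WT) and 9.05 and 10.4 (CCNY-shRNA). It lay below EGFP without overlap on overexpression as well as on knockdown, unlike Ccl7 and Cxcl1. Both CCNY-shRNA libraries lay below both EGFP libraries for 24.5% of the genes tested. The share lying below EGFP in CCNY-WT, or in both conditions, was not counted. The log2 difference in CCNY-WT was −0.36 with an SE of 0.125 (95% interval −0.653 to −0.075, limma adjusted p = 0.725). In CCNY-shRNA it was −0.49 with the same SE (95% interval −0.781 to −0.202, limma adjusted p = 0.107). Both comparisons use the same EGFP libraries. CCNY-shRNA and CCNY-WT, compared directly, differed by −0.13 (limma adjusted p = 0.744).

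Cx3cl1 was by far the most abundant chemokine of the culture, with an FPKM of 131 and 138 (EGFP), 138 and 138 (CCNY-WT) and 128 and 118 (CCNY-shRNA). Its EGFP mean ranked 818 from the top of the 10188 genes tested. The CCNY-shRNA libraries lay just below both EGFP libraries, with a log2 difference of −0.13 (95% interval −0.271 to 0.005, limma adjusted p = 0.285). In CCNY-WT the difference was 0.04, and its 95% interval from −0.101 to 0.175 leaves out changes of more than those sizes at the fitted spread (limma adjusted p = 0.929). Its replicates agreed closely, and its interval was the narrowest of the fitted genes of the group.

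Cxcr4, the receptor of Cxcl12, read 3.97 and 6.87 (EGFP), 3.83 and 4.37 (CCNY-WT) and 3.23 and 4.97 (CCNY-shRNA), and its groups overlapped in every comparison. The 2 EGFP libraries, at 36 and 68 fragments, differed more from each other than the group means did. The log2 differences from EGFP were −0.35 in CCNY-WT (95% interval −1.037 to 0.334, limma adjusted p = 0.861) and −0.38 in CCNY-shRNA (95% interval −1.067 to 0.304, limma adjusted p = 0.534). Ackr3, which binds and removes Cxcl12, read 6.22 and 6.05 (EGFP), 6.36 and 8.41 (CCNY-WT) and 8.42 and 10.3 (CCNY-shRNA). Both CCNY-shRNA libraries of Ackr3 lay above both EGFP libraries, with a log2 difference of 0.60 and an SE of 0.174 that did not pass the threshold (limma adjusted p = 0.136).

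**Figure D3:**
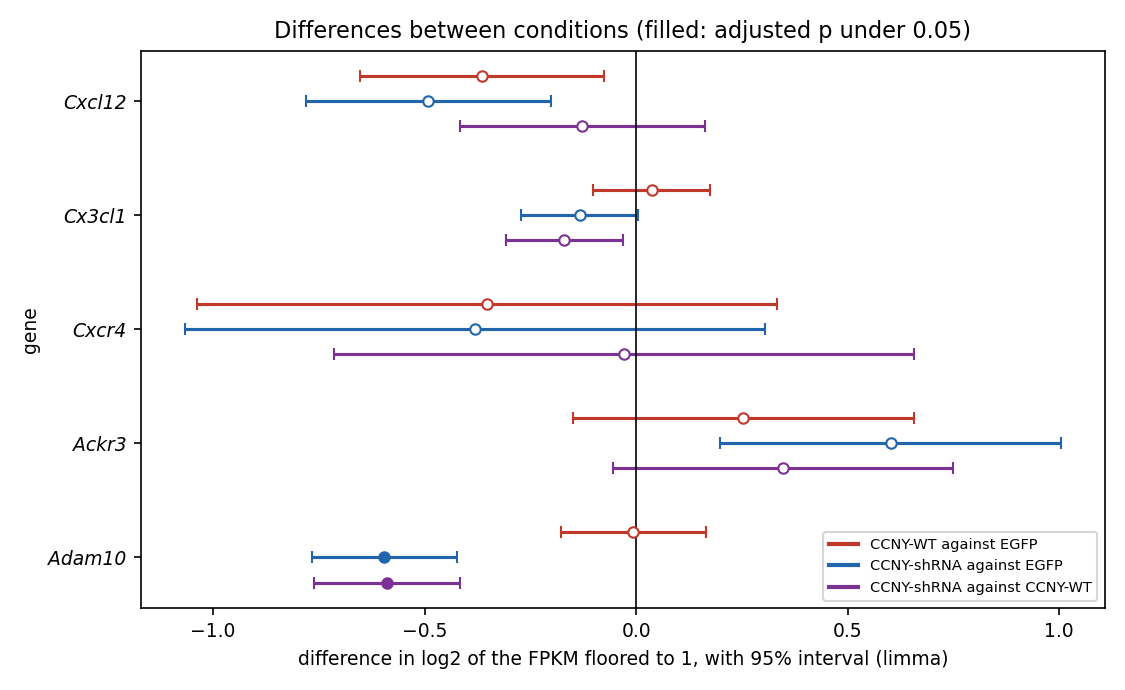
Differences between conditions in log2 of the FPKM floored to 1, with limma's 95% interval, for Cxcl12, Cx3cl1, Cxcr4, Ackr3 and Adam10. Open circles did not pass an adjusted p of 0.05, and the 2 filled circles are Adam10 in CCNY-shRNA against EGFP (−0.59) and against CCNY-WT (−0.59).

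Counts of members need the counts over all genes beside them. With the study's fold threshold of 0.3 applied to the floored log2 difference, 3 of the 7 genes (Ccl2, Ccl7 and Cxcl1) were counted as higher in CCNY-WT. The share over all 17066 genes was 2.80%. Of these 3, 2 were chosen for that direction, and Cxcl1 rose above the floor in CCNY-WT alone. By the same threshold 2 of the 7 (Cxcl12 and Cxcr4) were counted as lower in CCNY-WT. The share of all genes in that direction was not counted. The study's own chemokine pathway genes raised in CCNY-WT also include Cxcl10, which stayed under the floor here. By the criterion of at least 0.33 for CCNY-shRNA, 4 of the 7 (Ccl2, Ccl7, Cxcl12 and Cxcr4) were counted as lower, against 4.58% of all genes, and again 2 were chosen for it. Both directions together were met by Ccl2 and Ccl7 and by 0.111% of all genes, which is the pattern the pair was chosen for. These criteria hold no test. A gene under the floor of 1 in every library has no floored difference and cannot be counted, and of the members only Cxcl10 was such a gene. The shares over all genes are therefore lower than among genes that rise above the floor in any library. Both CCNY-WT libraries lay above both EGFP libraries for 2 of the 6 fitted genes (Ccl7 and Cxcl1), against 20.3% of the genes tested; Ccl7 was chosen for this and Cxcl1 passed the filter through it, so nothing is read from the count. Both CCNY-shRNA libraries lay below EGFP for 4 of the 6 (Ccl7, Cxcl1, Cxcl12 and Cx3cl1), of which Ccl7 was chosen for it, against 24.5%. By limma's adjusted p, 0 of the 3 genes Cxcl12, Cx3cl1 and Cxcr4 passed in any comparison, with 0.00982%, 0.746% and 0.216% of the tested genes passing in CCNY-WT against EGFP, CCNY-shRNA against EGFP and CCNY-shRNA against CCNY-WT. Of these 3, Cxcl12 had an unadjusted limma p of 0.0199 in CCNY-WT and 0.00453 in CCNY-shRNA, and Cx3cl1 one of 0.0217 between CCNY-shRNA and CCNY-WT. An unadjusted p under 0.05 was reached by 6.83%, 18.6% and 12.2% of all genes tested in the same 3 comparisons.

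Most of the chemokine family lay at 0 or under an FPKM of 1 in these cultures. Of 37 listed ligands, 36 were in the table; 16 were listed at 0 in all libraries, 11 lay above 0 but under an FPKM of 1 in all, and 9 reached 1 in any library. Of 23 listed receptors, 20 were in the table, 13 were at 0 in all libraries and 3 reached 1 in any. Beyond the members, Ccl27 was at 21.6 to 27.2 and Cxcl14 at 16.2 to 18.7, per length the next most abundant ligands after Cx3cl1. The RefSeq span of Ccl27 overlaps that of the receptor gene Il11ra1, and the use of strand in the counting is not stated, so its level is uncertain. Cxcl6 varied from 0.729 to 2.32, and its 2 libraries differed widely in EGFP and in CCNY-shRNA. Cxcl16 ranged from 0.667 to 1.08 and Cxcr1 from 0.419 to 1.03. In the order of the levels per length, Ccl2 and Ackr3 overlapped, as did Cxcl12 and Ackr3, while Cx3cl1 stood above every other gene in each library.

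**Figure D4:**
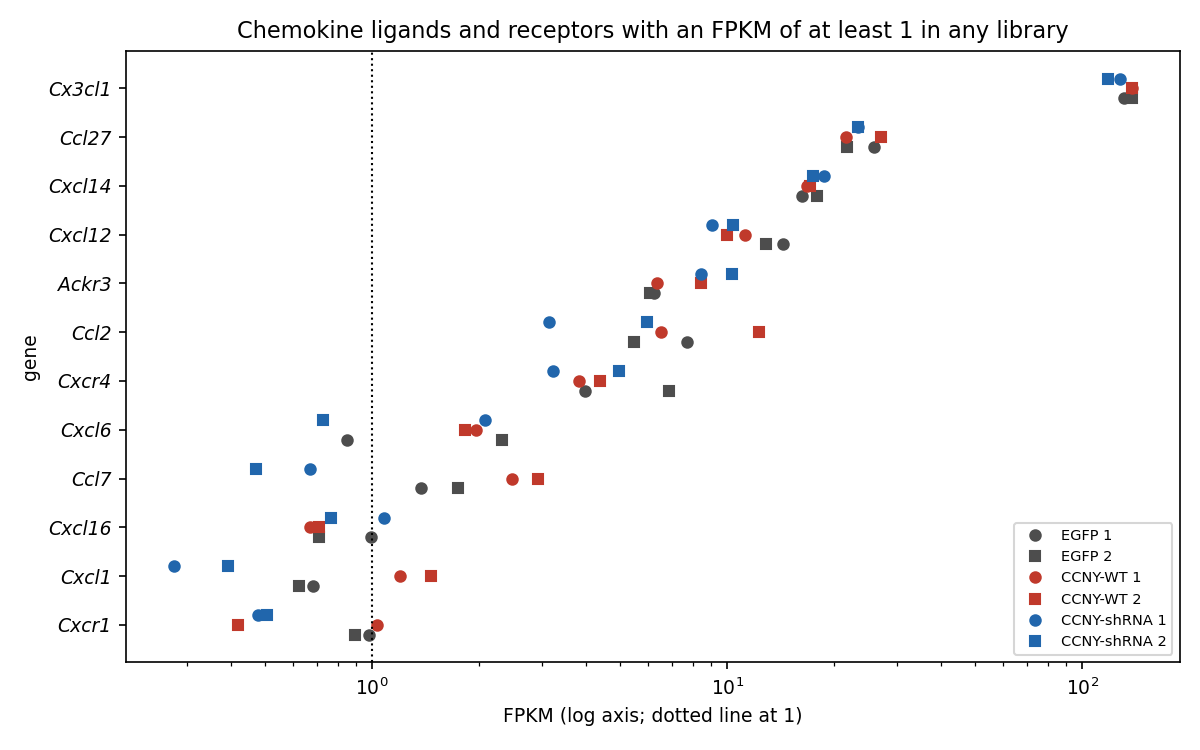
FPKM on a log axis of the chemokine ligands and receptors that reached 1 in any library, 1 point for each of the 6 libraries, sorted by mean. Cx3cl1 lies at 118 or more in all libraries, Ccl27, Cxcl14 and Cxcl12 between 9.05 and 27.2, and Cxcl1 and Cxcr1 between 0.277 and 1.46.

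In the RefSeq gene order, Ccl2 and Ccl7 are followed by Ccl11, Ccl12 and Ccl1. Of these neighbours, Ccl12 was listed at 0 throughout, Ccl11 above 0 only in EGFP replicate 2 (0.195) and Ccl1 only in CCNY-WT replicate 2 (0.702). Ccl2 and Ccl7 were therefore the only ones of these 5 genes above an FPKM of 1.

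The main receptors of the inflammatory ligands and of Cx3cl1 were listed at 0 in all 6 libraries. These were Ccr1, Ccr2 and Ccr3, which bind Ccl7 or Ccl2, Cxcr2 for Cxcl1, Cxcr3 for Cxcl10, and Cx3cr1, which microglia carry, for Cx3cl1. Of 13 microglia and macrophage markers, 12 stayed under an FPKM of 1 in all libraries or at 0, among them Aif1 at 0; their summed FPKM was 0.546 and 1.1 (EGFP), 1.65 and 0.745 (CCNY-WT) and 1.34 and 1.34 (CCNY-shRNA). Astrocyte markers, 9 genes, summed to 540 and 580, 573 and 567, and 472 and 545, and the 6 endothelial markers in the table had a sum of at most 1.36. In CCNY-shRNA against EGFP, 7 of the 9 astrocyte markers had negative and 2 positive differences, with a median log2 difference of −0.196. Of the 9, 0 passed limma's threshold, and 3 had an unadjusted limma p under 0.05, against 18.6% of all genes tested. Meningeal and mural markers summed to 68.4 and 77.8 (EGFP), 83.0 and 83.7 (CCNY-WT) and 78.1 and 88.6 (CCNY-shRNA), and 1 of them, the matrix protein Mgp, rose in CCNY-shRNA (log2 difference 1.94, limma adjusted p = 0.0144). Mgp read 4.07 and 5.11 (EGFP), 8.15 and 8.21 (CCNY-WT) and 14.3 and 21.5 (CCNY-shRNA). Its CCNY-WT libraries thus also lay above both EGFP libraries, without passing the threshold (limma adjusted p = 0.614). Lum, the most abundant of the list, read 50.1 and 56.0 (EGFP), 56.1 and 59.7 (CCNY-WT) and 46.0 and 49.0 (CCNY-shRNA; limma adjusted p against EGFP = 0.308). Neuronal markers summed to between 4040 and 4140 in every library, and 1 of them, the GABA-synthesizing enzyme Gad2, fell in CCNY-shRNA (log2 difference −0.41, limma adjusted p = 0.0226). Mgp was 1 of 3 fitted markers of its list and Gad2 1 of 10, while 0.746% of all genes passed in CCNY-shRNA against EGFP. Neither call was followed under the other settings. The part of glial or meningeal cells in the chemokine values was not tested, and fewer cells of a type and less RNA per cell cannot be told apart in bulk RNA.

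Among the proteases that release or trim chemokines, Adam10, which sheds Cx3cl1 from the membrane, fell on knockdown. Its FPKM was 52.3 and 52.2 (EGFP), 55.3 and 48.9 (CCNY-WT) and 35.4 and 33.8 (CCNY-shRNA), so both knockdown libraries lay below all others. The log2 difference from EGFP was −0.59 with an SE of 0.0742 (limma adjusted p = 0.0231), and from CCNY-WT −0.59 (adjusted p = 0.0330). In CCNY-WT against EGFP it was −0.01 (limma adjusted p = 0.993). Adam17, the inducible sheddase, read from 2.18 to 2.97 and did not pass (limma adjusted p = 0.546 in CCNY-shRNA). Of the 6 listed proteases 3 were fitted, and Adam10 was the only one past the threshold, which 0.746% of all genes passed in CCNY-shRNA against EGFP and 0.216% in CCNY-shRNA against CCNY-WT. Without any 1 EGFP or CCNY-shRNA library, its log2 difference from EGFP lay between −0.56 and −0.63, and the call was not kept. It was also lost without the filter on low values (limma adjusted p = 0.140), without the trend (0.143) and with only the 4 libraries compared (0.117). The call against CCNY-WT was lost under these 3 settings as well (0.230, 0.185 and 0.163), and without any 1 of its libraries.

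Of the genes acting downstream of chemokine receptors, 1 passed the test in any comparison. Of 105 listed genes (G protein subunits, phospholipases, kinases and small GTPase regulators), 98 were in the table and 86 were fitted. An unadjusted p under 0.05 was found for 8 of the 86 in CCNY-WT against EGFP, 18 in CCNY-shRNA against EGFP and 16 between CCNY-shRNA and CCNY-WT, against 696, 1891 and 1239 of all 10188 genes. By limma's adjusted p 0 passed in CCNY-WT against EGFP, and 1 fell in CCNY-shRNA against EGFP, where 0.746% of all genes passed, with a median log2 difference over the list of 0.001 and 0.028, against 0.004 and 0.000 over all genes tested. That gene was Rasgrp2, an exchange factor that activates Rap1, at 15.3 and 15.1 (EGFP), 14.7 and 15.7 (CCNY-WT) and 8.72 and 9.39 (CCNY-shRNA). Its log2 difference from EGFP was −0.75 with an SE of 0.102 (limma adjusted p = 0.0321), and from CCNY-WT also −0.75 (adjusted p = 0.0419). The adjusted p against EGFP was 0.0897 to 0.328 without any 1 of these 4 libraries, 0.118 without the filter and 0.0950 without the trend. The call against CCNY-WT was lost under those settings as well, without any 1 of the 4 libraries compared, with upper-quartile scaling (0.0509), with quantile normalization (0.0570) and with the replicate block (0.0707).

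No call was made among the signals that induce inflammatory chemokines. Of 35 listed inducers, receptors and transcription factors, 31 were in the table, 19 were fitted, and 0 passed limma's threshold in any comparison, while an unadjusted p under 0.05 was found for 1 in CCNY-WT against EGFP, 6 in CCNY-shRNA against EGFP and 3 between CCNY-shRNA and CCNY-WT, against 6.83%, 18.6% and 12.2% of all genes tested. The cytokines Tnf, Il1a and Ifng were listed at 0 in all libraries. The interferon gamma receptor chains Ifngr2 and Ifngr1 had log2 differences of −0.37 and −0.41 in CCNY-shRNA (limma adjusted p = 0.0672 and 0.0952). Myd88, of the same list, went the other way, at 1.53 and 1.48 (EGFP), 1.92 and 2.19 (CCNY-WT) and 2.70 and 1.84 (CCNY-shRNA). Of the 19 fitted genes, 13 had negative and 6 positive differences in CCNY-shRNA against EGFP. Ly96, the partner of the endotoxin receptor, was listed at 38.2, 16.6 and 15.5 in EGFP 1, EGFP 2 and CCNY-WT 1 and at 0 in the other 3 libraries, so its 2 CCNY-WT libraries differed.

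On log2 of the FPKM floored to 1, the 5 genes nearest to Ccl2 and the 5 nearest to Ccl7 shared no gene. Nearness was the Pearson r over the 6 libraries. They were taken from 2672 fitted genes with a range of at least 0.5, as a description over 6 libraries that share their conditions. Nearest to Ccl2 were Ppcdc (Pearson r = 0.984), Lhfpl2 (0.975), Rhog, Ccbl1 and Phospho2 (0.974 each). Nearest to Ccl7 were Crh (0.992), Tmem106c (0.985), Fance (0.982), Cfp (0.968) and Smad3 (0.965). Ccl2 and Ccl7 themselves reached 0.718, and Ccl7 and Cxcl1 0.855. Crh, the corticotropin-releasing hormone, ran at 1.33 and 1.53 (EGFP), 2.14 and 2.15 (CCNY-WT) and 0.815 and 0.722 (CCNY-shRNA), the same order of the conditions as Ccl7. Ppcdc read 3.23 and 4.73 in the CCNY-WT libraries, of which replicate 2 was also the highest for Ccl2. No p is given for these coefficients, and those of Ccl7 with Crh and Cxcl1 rest in part on the floor. Both CCNY-shRNA values of Ccl7 and of Crh were set to it, as were the EGFP and CCNY-shRNA values of Cxcl1.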

How the data were processed

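RNA-seq was measured in 6 libraries. The authors aligned 150-bp paired-end reads to rn4 with TopHat 2 and computed FPKM with Cufflinks; the deposited FPKM table has 1 row per gene symbol and 1 column per library. The submitters' processing notes name TopHat2 2.0, Bowtie2 2.1.0, SAMtools 0.1.19, Cufflinks 2.2.1 and R 3.1.0. Which annotation was used, and whether libraries were scaled further, is not given in the sources used here. FPKM sums ran from 543567 to 645435, and Bc1 held 15.1% of that of CCNY-WT replicate 1. Total depth is unknown. Relative depth, from 0.818 to 1.33 of EGFP replicate 1, and fragment numbers were read from FPKM steps; 93.8% of 1921 low genes fitted whole numbers within a tolerance of 0.05. RefSeq tables of another build, GRCr8, gave names, gene order and promoters only.

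FPKM was floored to 1 and log2-transformed, as in the study. Tests used limma 3.58.1 (R 4.3.3; lmFit, contrasts.fit, eBayes with a trend, two-sided) on all 6 libraries and the 10188 genes that reached an FPKM of 1 in at least 2 libraries, with Benjamini-Hochberg adjustment and a threshold of 0.05. Exact permutation of 2 against 2 libraries cannot go below p = 0.333 and was not used. Both steps were tested on simulated data. Python 3.11.15, pandas 2.3.3, numpy 2.4.6, scipy 1.17.1 and matplotlib 3.10.9 handled tables, intervals and plots.

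Members and lists were chosen with earlier results of these data known. Named were the 7 members, other family genes that reached an FPKM of 1 anywhere, Ccny, genes of the other lists past the threshold or, at most, the 3 with the smallest p, and the 5 genes most like Ccl2 and Ccl7. Genes at 0 and the cluster neighbours were named after their values were seen. Alternatives covered the offset, filter, scaling, trend, block, the 4 libraries compared and leaving out each library.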

Additional observations from a re-analysis of the deposited data

How the results depend on the processing

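Counts of called genes depended on the fit. In CCNY-WT against EGFP, 1 gene passed, 3 with 1 added in place of the floor or with a filter on the mean, and 0 to 1 without 1 library. In CCNY-shRNA against EGFP, 76 passed, 2 without a filter, 1 without a trend, 1 with the 4 libraries compared alone, and 1 to 7 without 1 library. In CCNY-shRNA against CCNY-WT, 22 passed, 2 without a filter, 1 without a trend, 1 with the 4 libraries alone, and 1 to 8 without 1 library. A replicate block gave 39 calls in CCNY-shRNA against EGFP. The deviations of same-numbered libraries from their group means correlated at 0.053, 0.038 and 0.054, so the numbers were not taken as pairs. Causes were not tested. Ccl2 in CCNY-WT ranged from −0.001 to 0.915 without 1 library, and turned at the lower end (CCNY-WT replicate 2 left out). Over the members, Ackr3, Adam10 and Rasgrp2, 335 values were kept, and 31 calls of Adam10 and Rasgrp2 were lost. For Ccl2 and Ccl7, kept means the same sign and a shift smaller than the spread between replicates. For the other genes it means the same side of the threshold and, where called, the same direction. For Ccl7, which is described without a test, 8 values moved by more than the spread between replicates, and 1 value of Ccl2 turned. Few fragments limit Ccl7, Cxcl1 and Cxcl10.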
